A study of Mus musculus with 40 samples.

Results

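The mouse T cell receptor alpha repertoire was examined for 4 V segments of the Trav3 family. They are Trav3-3, its D and N copies Trav3d-3 and Trav3n-3, and Trav3-4. The members were chosen by name, as subgroups 3 and 4 of the family with or without D or N, and they make up 4 of the 106 Trav segments listed in the deposited Tcra tables. No D or N copy of subgroup 4 was listed, and Trav3-1 was not a member. The series holds 40 samples, of which 4 Tcra libraries carry the main results. Each was made by 5′ RACE, a method that copies receptor mRNA from its 5′ end without V-specific primers, from thymocyte RNA of C57BL/6 mice aged 4 to 8 weeks. EACBE+/+ mice are wild type, and EACBE-/- mice lack EACBE, a binding element for the chromatin protein CTCF at the Tcra enhancer Ea. Each genotype had 2 libraries, and nothing in the labels says that these came from separate mice, so p-values measure the spread between these libraries only.

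An alpha chain is made when a developing thymocyte joins a Trav segment to a Traj segment. First joins tend to pair V segments near the J array with 5′ Traj, and later rounds replace them with more distant V segments joined to more 3′ Traj. The enhancer Ea lies beyond the 3′ end of the locus and drives this recombination through promoters in the J array. The C57BL/6 V array contains internal duplications, and the copies carry D or N in their names.

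On chromosome 14 (GRCm38.p6, RefSeq V segments) the members lie in the order Trav3d-3, Trav3n-3, Trav3-3 and Trav3-4 towards the J array. Trav3d-3 spans 52972532 to 52973038 and is the most distant, 1184.2 kb from Traj58, the first Traj in the tables. Trav3n-3 spans 53283669 to 53284175, 873.1 kb from Traj58. Trav3-3 spans 53666005 to 53666506, 490.8 kb away, and Trav3-4 spans 53777071 to 53777576, 379.7 kb away. The members thus sample the array from its distal to its proximal side, as the 32nd, 58th, 93rd and 103rd of the 106 listed Trav.

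Depth differed widely between replicates. Table totals were 10694 and 172388 counts in EACBE+/+ and 19085 and 163953 in EACBE-/-, in the order replicate 1, replicate 2, which is kept below. Within a genotype the replicates differed beyond sampling noise, so neither pair is a library deposited again. The tables list receptor segments alone, so the labelled tissue could not be checked against marker genes. The sources do not state how reads that match several copies were assigned, and values of Trav3-3, Trav3d-3 and Trav3n-3 taken separately carry that uncertainty.

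Every member took a smaller share of the repertoire in both EACBE-/- libraries than in either EACBE+/+ library. Trav3d-3 held 3.34% and 2.96% of all counts in EACBE+/+ and 1.51% and 1.49% in EACBE-/-, 2.10-fold less on average. Trav3-3 held 2.75% and 2.68% against 1.504% and 2.09%, 1.51-fold less. These were the heavily used members: Trav3d-3 ranked 1st and 6th of 105 segments in the EACBE+/+ libraries but 23rd and 22nd in the EACBE-/- libraries.

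The other members were used several times less. Trav3n-3 held 0.627% and 0.558% in EACBE+/+ and 0.330% and 0.149% in EACBE-/-, 2.47-fold less on average. Trav3-4 held 0.692% and 0.554% against 0.414% and 0.281%, 1.79-fold less. The 95% Wilson intervals of these 2 segments overlapped within each EACBE+/+ library, so their order there is not resolved, whereas in replicate 2 of EACBE-/- Trav3-4 stood above Trav3n-3. The order of Trav3d-3 and Trav3-3 turned with genotype in the replicate 2 libraries: Trav3d-3 was higher in EACBE+/+ and Trav3-3 in EACBE-/-. In replicate 1 Trav3d-3 was higher in EACBE+/+, with overlapping Wilson intervals, and they were level in EACBE-/-.

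**Figure D1:**
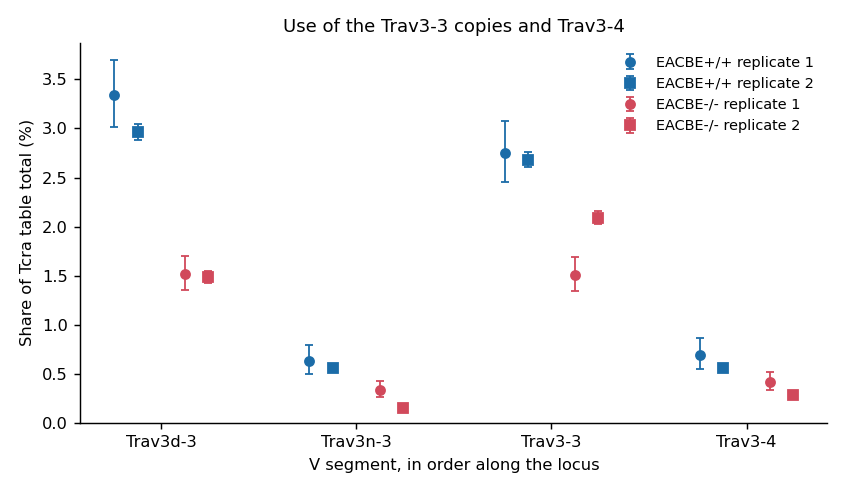
Share of the Tcra table total (y axis, %) held by each member (x axis, in order along the locus). Each point is 1 library with its 95% Wilson interval, which covers counting error only. For every member the red EACBE-/- points lie below the blue EACBE+/+ points; Trav3d-3 goes from 3.34% and 2.96% to 1.51% and 1.49%.

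Summed, the members held 7.41% and 6.76% of EACBE+/+ counts and 3.76% and 4.01% of EACBE-/- counts. Means were 7.08% ± 0.459 and 3.88% ± 0.174 (SD, n = 2 each), a 1.82-fold lower share in EACBE-/- (two-sided exact permutation p = 0.33, the smallest that 2 against 2 libraries allow). Groups that do not overlap in this direction were common: 25 of 105 Trav (23.8%) were lower in both EACBE-/- libraries. When each V-J pair was counted once, whatever its counts, the difference of -3.20 percentage points shrank to -0.43. In the replicate 2 libraries each member already had 37 to 43 of the 43 Traj as partners.

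By edgeR's quasi-likelihood test on segment counts with Benjamini-Hochberg adjustment, 0 of the 4 members passed an adjusted p of 0.05, where 6 of 105 Trav passed (5.71%, all lower). The log2 change, EACBE-/- over EACBE+/+, was -1.07 (SE 0.286, adjusted p = 0.0965) for Trav3d-3 and -1.33 (SE 0.509, adjusted p = 0.247) for Trav3n-3. It was -0.59 (SE 0.307, adjusted p = 0.386) for Trav3-3 and -0.85 (SE 0.413, adjusted p = 0.378) for Trav3-4. Single libraries moved some of these values: Trav3-3 was at -0.38 without EACBE-/- replicate 1 and -0.85 without EACBE-/- replicate 2, and Trav3n-3 at -1.98 and -0.84. At an unadjusted p of 0.05, Trav3d-3 (0.00735) and Trav3n-3 (0.0353) passed, among 18 of all 105 segments, and DESeq2 also called 0 of the 4 members and 7 segments in all.

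Summing the original, D and N copies of each segment removes the question of how reads were split between them. The Trav3-3 copies together then fell, with a log2 change of -0.87 (SE 0.177, edgeR adjusted p = 0.0250), while Trav3-4 was at -0.85 (SE 0.33, adjusted p = 0.132). Of the 46 copy-summed segments, 12 passed (26.1%), 9 of them lower (19.6%). The Trav3-3 call did not hold under TMM factors (adjusted p = 0.0558), with DESeq2 (adjusted p = 0.0521) or without any 1 of the 4 libraries (edgeR adjusted p from 0.0990 to 0.190), though the value stayed negative throughout. TMM moved the median log2 change of the copy-summed segments by 0.15.

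Related segments gave the setting for these values. The members' median log2 change was -0.96, against -0.12 over all 105 Trav. It was -0.0046 over 34 D copies, -0.14 over 27 N copies and 0.11 over 33 originals that have a copy, with 0, 0 and 1 called lower. Among 11 other segments without a copy the median was -2.22 and 5 were called lower. Trav3-1, the remaining family member, was listed at 0.262% and 0.335% in EACBE+/+ and 0.0105% and 0.0610% in EACBE-/- (log2 change -2.92, edgeR adjusted p = 0.192).

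J use separated the members into distal and proximal profiles. The 43 listed Traj were split into 13 at the 5′ end (Traj61 to Traj42), 16 in the middle (Traj41 to Traj22) and 14 at the 3′ end (Traj21 to Traj1). In EACBE+/+, 37.5% and 52.1% of Trav3d-3 counts and 46.3% and 59.7% of Trav3n-3 counts were joined to 3′ Traj. For Trav3-3 the 3′ share was 8.16% and 12.9%, and for Trav3-4 it was 16.2% and 28.9%. Across all 105 Trav the 3′ share was lower nearer the J array (Spearman correlations between -0.65 and -0.55 in the 4 libraries, as a description across segments that share libraries).

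**Figure D2:**
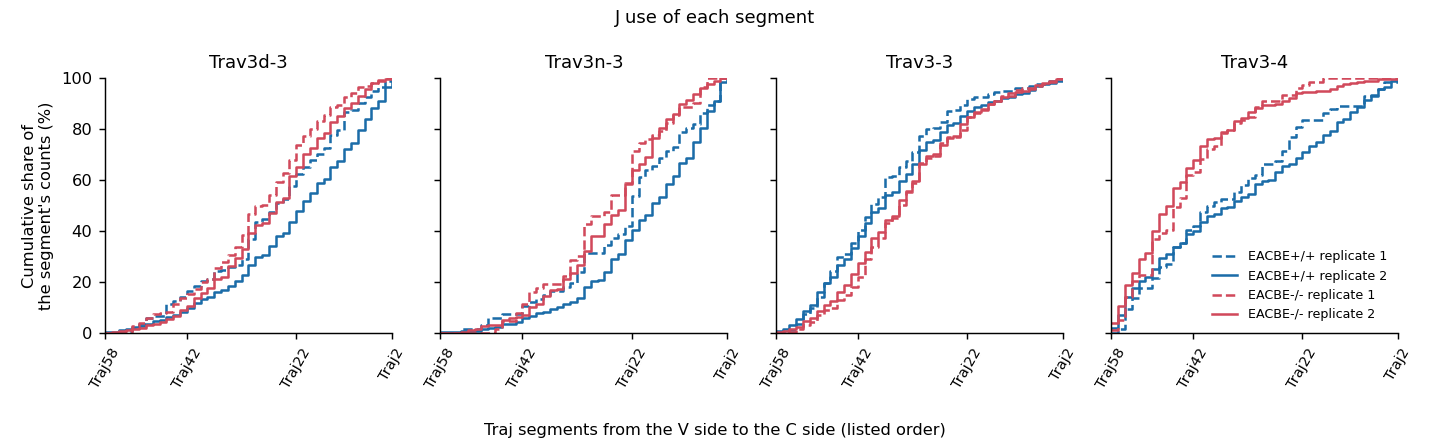
Cumulative share of each member's counts (y axis, %) over the 43 listed Traj in order from the V side to the C side (x axis); blue lines are EACBE+/+, red lines EACBE-/-, dashed replicate 1 and solid replicate 2. At the start of the 3′ Traj the red lines lie above the blue for Trav3d-3, Trav3n-3 and Trav3-4 and below for Trav3-3, while over the 5′ Traj the genotypes overlap for Trav3d-3 and Trav3n-3. The Trav3-3 mean Traj rank was 16.8 and 17.9 in EACBE+/+ and 20.2 and 19.8 in EACBE-/-.

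In EACBE-/- the members did not all move the same way. The 3′ share of Trav3d-3 was 26.3% and 34.7%, and that of Trav3n-3 was 28.6% and 35.9%, below their EACBE+/+ libraries in each case. Trav3-4 was lower still, at 2.53% and 5.42%, from 2 of 79 and 25 of 461 counts. Trav3-3 was the exception, with a 3′ share of 15.0% and 15.3%, above both EACBE+/+ libraries. Of the 105 Trav, 2 (1.9%) were higher in both EACBE-/- libraries, the other being Trav17, named after its values were seen. Over all 105 Trav, 71 (67.6%) had a lower 3′ share in both EACBE-/- libraries, so the lower values of the other 3 members are the common pattern in these tables.

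At the 5′ end Trav3-3 and Trav3-4 moved in opposite directions. Trav3-4 was joined to 5′ Traj in 41.9% and 39.9% of EACBE+/+ counts and in 63.3% and 68.1% of EACBE-/- counts. A higher 5′ share in both EACBE-/- libraries was seen in 48 of 105 Trav (45.7%). Trav3-3 went from 40.5% and 37.9% to 21.95% and 27.3%, and 8 of 105 Trav (7.62%) were lower in both EACBE-/- libraries. These segments lie 110.6 kb apart and had nearly the same 5′ share in EACBE+/+; in EACBE-/- they differed by 41.3 and 40.8 percentage points.

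The distant copies showed little at the 5′ end. Trav3d-3 had a 5′ share of 16.5% and 9.58% in EACBE+/+ and 15.2% and 10.7% in EACBE-/-, and Trav3n-3 had 10.4% and 5.61% against 11.1% and 6.94%. For both, the genotypes overlapped. In the middle of the array the share of Trav3d-3 went from 45.9% and 38.3% to 58.5% and 54.6%. The middle share of Trav3n-3 went from 43.3% and 34.7% to 60.3% and 57.1%, and that of Trav3-3 from 51.4% and 49.2% to 63.1% and 57.4%. A higher middle share in both EACBE-/- libraries was seen in 53 of 105 Trav (50.5%). For Trav3-4 the genotypes overlapped, at 41.9% and 31.2% against 34.2% and 26.5%.

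**Figure D3:**
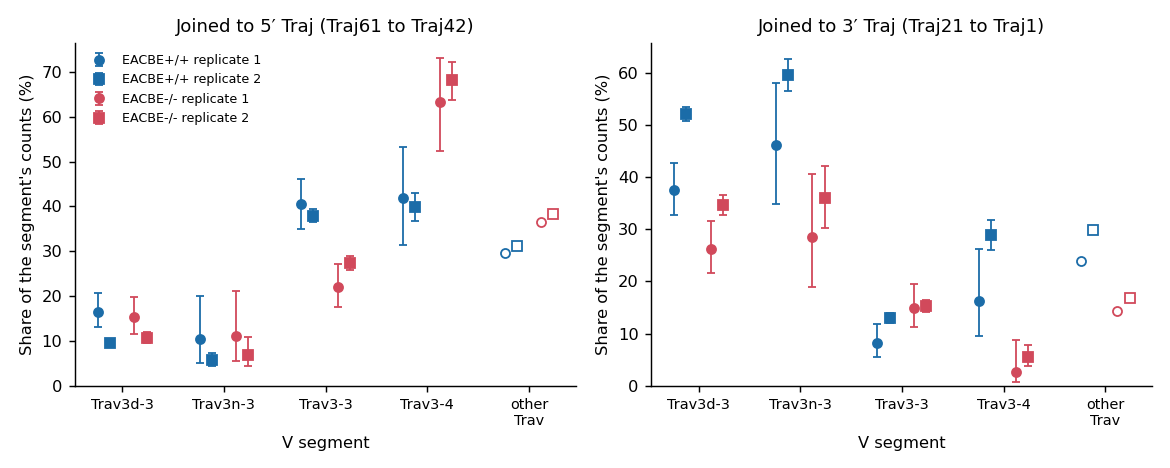
Share of each segment's counts joined to 5′ Traj (left) and 3′ Traj (right), in %, per library with 95% Wilson intervals; open symbols are all other Trav summed. In the left panel Trav3-4 goes from 41.9% and 39.9% to 63.3% and 68.1% and Trav3-3 to 21.95% and 27.3%.

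Each of these genotype differences had an exact permutation p of 0.33 where the groups did not overlap, the smallest possible here. The opposite moves of Trav3-3 and Trav3-4 were therefore tested per Traj, as the interaction of segment and genotype in edgeR's quasi-likelihood test with library as a block, a test added after the values were seen. Of 26 Traj with enough counts, 12 passed (46.2%), and 19 of 26 (73.1%) differed between the segments on average over the genotypes, 6 higher and 13 lower in Trav3-4 (7 and 9 with TMM factors, 4 and 0 by DESeq2). Trav3-4 rose relative to Trav3-3 in EACBE-/- at 8 of the 11 5′ Traj tested. It fell at 2 of the 13 middle Traj tested and at both 3′ Traj tested. Only 2 of the 14 3′ Traj had enough counts for this test.

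Traj49, a 5′ segment chosen here after its values were seen, had the lowest p. It took 4.05% and 3.25% of Trav3-4 counts in EACBE+/+ and 13.9% and 8.46% in EACBE-/-, whereas in Trav3-3 it went from 4.08% and 5.06% to 2.79% and 2.60%. The interaction was 2.39 on the log2 scale (SE 0.355, edgeR adjusted p = 3.6e-07). These calls rest on the deep libraries: without replicate 2 of either genotype 0 of 27 Traj passed, and DESeq2 called 0 of 43.

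Neighbouring V segments within 50 kb placed the proximal members. In EACBE+/+ the measured 3′ share of Trav3-4 was above all 5 of its neighbours, whose medians were 4.41% and 8.69%. The highest neighbours were Trav14-3 in replicate 1 (9.03%, 144 counts) and Trav13-3 in replicate 2 (27.2%, 694 counts). The Wilson interval of Trav3-4 was 9.53% to 26.2% in replicate 1, starting close to the Trav14-3 value. In replicate 2 it was 26.1% to 31.9% and included the Trav13-3 value, so that order is not resolved. In EACBE-/- replicate 1 Trav3-4, at 2.53% (2 of 79 counts), was below all 5, the lowest being Trav8-2 at 3.57% (84 counts). Its Wilson interval of 0.697% to 8.77% included that value, so a place below all neighbours is not resolved. In replicate 2, at 5.42%, Trav3-4 lay within the neighbours' range of 3.86% to 12.8%. For Trav3-3, the 9 neighbours had medians of 7.56% and 14.4% in EACBE+/+ and 9.40% and 11.3% in EACBE-/-. Trav3-3 was above all 9 in EACBE-/- replicate 1 (highest neighbour 13.2%) but not in replicate 2 (highest neighbour 22.1%). The replicate 1 order is not resolved either, as the Wilson interval of Trav3-3 there was 11.3% to 19.6%.

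**Figure D4:**
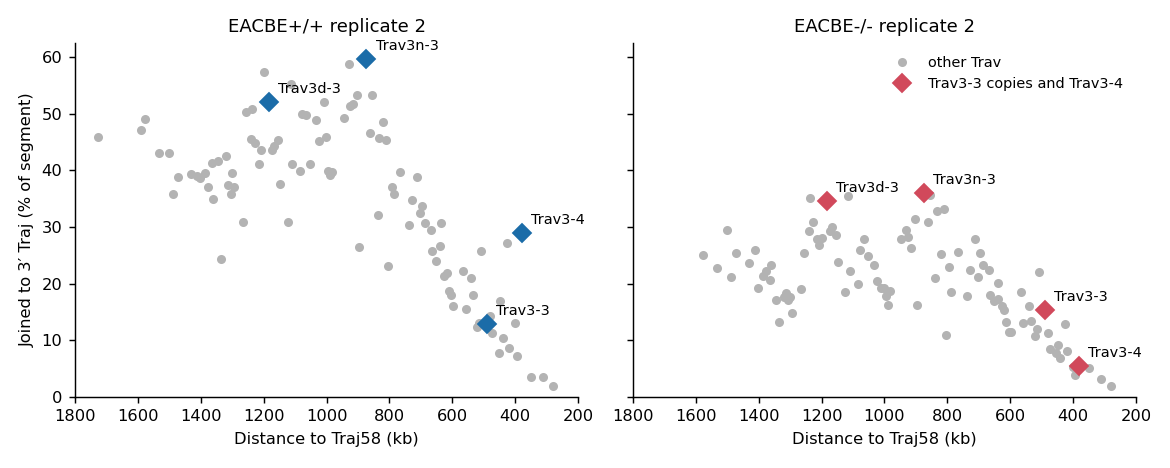
Share of each Trav segment's counts joined to 3′ Traj (y axis, %) against its distance to Traj58 (x axis, kb, J array to the right) in the replicate 2 libraries, for segments with at least 50 counts. Diamonds mark the members: Trav3d-3 and Trav3n-3 lie near the top of the distal cloud (52.1% and 59.7% in EACBE+/+), and Trav3-4 goes from 28.9% to 5.42%.

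The distal copies differed from Trav3-3 within every library. Trav3d-3 exceeded Trav3-3 in 3′ share by 29.4, 39.2, 11.3 and 19.4 percentage points in the 4 libraries (EACBE+/+ first), a mean of 24.8 ± 12.1 (SD, n = 4). Trav3n-3 exceeded it by 38.1, 46.7, 13.6 and 20.7 points, a mean of 29.8 ± 15.3 (SD, n = 4). Both were higher in 4 of 4 libraries (exact sign-change permutation p = 0.12, the smallest that 4 libraries allow, adjusted p = 0.15 over 6 pairs of members). The gap was smaller in both EACBE-/- libraries than in either EACBE+/+ library for both copies.

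Per Traj, with library as a block, Trav3d-3 and Trav3-3 differed at 29 of 41 Traj by edgeR (70.7%, an added test). Trav3d-3 was higher at 14, of which 11 were 3′, and lower at 15, of which 10 were 5′; with TMM factors the split was 20 higher and 14 lower. The call at Traj15, a 3′ segment named after its values were seen, had the lowest p, with a log2 difference of 1.84 (SE 0.228, edgeR adjusted p = 2.3e-10). Traj15 took 4.76%, 4.54%, 3.11% and 4.27% of Trav3d-3 counts in the 4 libraries and 0.340%, 0.865%, 1.74% and 1.81% of Trav3-3 counts. Without EACBE-/- replicate 2, 0 of 32 Traj passed, and without EACBE+/+ replicate 2, 12 of 26. Trav3n-3 differed from Trav3-3 at 19 of 23 Traj (82.6%), 7 higher and 12 lower by edgeR, and at 23 of 43 by DESeq2, 6 higher and 17 lower. As an interaction with genotype, 1 of 41 Traj passed for Trav3d-3 against Trav3-3 (2.44%) and 3 of 23 for Trav3n-3 against Trav3-3 (13.0%). Traj4 was called in both: it took 2.24% and 5.44% of Trav3d-3 counts in EACBE+/+ and 0.692% and 0.656% in EACBE-/-, against 1.02%, 0.930%, 1.39% and 1.02% of Trav3-3 counts. These interaction calls were 0 by DESeq2, and leaving out any 1 library left 0 for Trav3d-3 and 0 to 2 for Trav3n-3.

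Trav3d-3 and Trav3n-3 were closer to each other. Trav3n-3 had the higher 3′ share in 4 of 4 libraries, Trav3d-3 minus Trav3n-3 being -8.73, -7.54, -2.27 and -1.26 percentage points, a mean of -4.95 ± 3.73 (SD, n = 4, exact sign-change permutation p = 0.12). Per Traj, 0 of 20 passed with edgeR, 0 of 20 had an unadjusted p under 0.05, and DESeq2 called 0 of 43. With only 63 to 962 Trav3n-3 counts per library, this does not show that the profiles are the same. Whether some Trav3n-3 counts came from Trav3d-3 reads was not tested.

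The members as a class were then set against all other Trav, summed, within library. The members gave 25.4%, 35.3%, 19.4% and 22.5% of their counts to 3′ Traj, against 23.9%, 29.8%, 14.4% and 16.9% for the other Trav. This sum mixes the opposite profiles of distal and proximal members. Its 3′ share was higher than that of the others in 4 of 4 libraries, by a mean of 4.39 ± 1.94 percentage points (SD, n = 4, exact sign-change permutation p = 0.12). The 5′ share was lower in 4 of 4, by a mean difference of -9.77 ± 5.82 points (SD, n = 4, exact p = 0.12).

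By edgeR, 20 of 43 Traj differed between the members and the other Trav (46.5%): 9 were lower in the members, all 5′, and 11 were higher, 7 of them 3′ and 4 in the middle. TMM factors gave 6 higher and 10 lower, and DESeq2 gave 3 and 5. Traj58, the first listed, had the lowest p. It took 0%, 0.412%, 0.139% and 0.350% of the members' counts and 1.91%, 2.90%, 1.85% and 2.75% of the others', a log2 difference of -2.95 (SE 0.173, edgeR adjusted p = 8.9e-28). The value in EACBE+/+ replicate 1 is 0 of 792 counts, which allows a share of up to 0.379%. The log2 difference was -7.63 without EACBE+/+ replicate 2, where the remaining EACBE+/+ library holds that 0, so the size of the fitted value is not a bound. Trav3-4 differed from the other members: Traj58 took 1.88% and 3.69% of its replicate 2 counts (18 and 17 counts), against 0.498% and 0.117% of Trav3-3 and 0.117% and 0.0820% of Trav3d-3 counts.

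Traj57 had a log2 difference of -1.75 (SE 0.139, edgeR adjusted p = 7.6e-20; -3.06 without EACBE+/+ replicate 2) and Traj56 of -1.26 (SE 0.124, adjusted p = 3.6e-15), and Traj50, Traj49 and Traj53 were lower by -0.77, -0.51 and -0.67. Traj56 was also used unevenly among the members: it took 8.11%, 7.12%, 8.86% and 8.03% of Trav3-4 counts but 1.02%, 1.73%, 0% and 0.730% of Trav3-3 counts. At the 3′ end Traj5 (1.23, SE 0.122, edgeR adjusted p = 3.6e-15) and Traj7 (0.95, SE 0.122, adjusted p = 1.3e-10) were higher in the members. Traj5 took 1.39%, 1.73%, 0.696% and 0.654% of the members' counts and 0.667%, 0.970%, 0.201% and 0.218% of the others'. Without EACBE-/- replicate 2 the count of differing Traj dropped to 3, all lower, and Traj5, Traj7, Traj50, Traj49 and Traj53 no longer passed.

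The genotype difference of the members' J use, set against that of the other Trav, gave 0 of 43 Traj past the threshold by edgeR and 0 by DESeq2, with 10 at an unadjusted p under 0.05. The lowest p-values were at Traj48 (-0.70, SE 0.223, edgeR adjusted p = 0.0609), Traj5 (0.76, SE 0.221, adjusted p = 0.0609), Traj47 (-0.73, SE 0.272, adjusted p = 0.104) and Traj50 (-0.74, SE 0.279, adjusted p = 0.104). Traj48 took 3.03% and 2.33% of the members' counts in EACBE+/+ and 1.67% and 1.98% in EACBE-/-, while among the other Trav it took 2.47% and 2.21% against 3.04% and 2.90%. TMM factors called 4 Traj, all lower, and leaving out 1 library gave 0 to 8, with 8 called without EACBE+/+ replicate 1 and 2 without EACBE+/+ replicate 2.

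The most used partner of the members' sum was Traj31, in the middle of the array. It took 6.69%, 4.58%, 7.94% and 6.24% of the members' counts, and 5.52%, 4.36%, 5.35% and 4.74% of the others'. It was followed by Traj23, Traj37, Traj22 and Traj40, with means over the 4 libraries of 4.33%, 4.11%, 4.02% and 3.79%. By member, in the deep replicate 2 libraries, Traj31 was the top partner of Trav3-3 in EACBE+/+ (5.47%) and in EACBE-/- (6.97%). For Trav3d-3 it was Traj4 in EACBE+/+ (5.44%) and Traj23 in EACBE-/- (8.49%). Trav3n-3 had the same pair of top partners, Traj4 in EACBE+/+ (7.38%) and Traj23 in EACBE-/- (10.2%). For Trav3-4 it was Traj56 in EACBE+/+ (7.12%) and Traj49 in EACBE-/- (8.46%).

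Some single V-J pairs of Trav3d-3 also passed the test. Trav3d-3 paired with Traj4 gave 8 and 278 counts in EACBE+/+ and 2 and 16 in EACBE-/-, a log2 change of -3.68 (SE 0.611). With Traj2, the last listed Traj, it gave 4 and 167 against 0 and 7 counts (-4.36, SE 0.767). This value was -8.67 without EACBE-/- replicate 2, where the remaining EACBE-/- library is at 0. Trav3n-3 with Traj4 gave 6 and 71 against 0 and 2 counts, a pooled ratio of 38.5 (95% exact interval 10.3 to 324, counting error only). This pair and the Trav3d-3 pairs with Traj4 and Traj2 could enter the test only through EACBE+/+, where they are high. Their values are therefore a description.

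Of the 43 possible Trav3d-3 pairs, 39 passed the filter on low counts and 8 fell, 7 of them with 3′ Traj and 1 with Traj45. The 8 include the pairs with Traj4 and Traj2, whose calls carry no weight because of how they entered. The pairs with Traj45 (2 and 25 counts in EACBE-/-) and Traj7 (1 and 67) were too low in EACBE-/- replicate 1. They could not enter without an EACBE+/+ library, where they are high, so their calls carry no weight either. Among the 3′ pairs, that with Traj12 had a log2 change of -1.86 (SE 0.461, edgeR adjusted p = 0.0195), that with Traj5 -2.30 (SE 0.632, adjusted p = 0.0370) and that with Traj9 -1.78 (SE 0.491, adjusted p = 0.0372). Called pairs were 0 of 40 tested for Trav3-3 and 0 of 19 for Trav3-4, and for Trav3n-3 only 14 of 43 pairs could be tested. A pair enters the test only with enough counts in some libraries, so pairs used mainly in EACBE+/+ could enter through that genotype. Over all Trav, 79 of 2416 pairs passed (3.27%), 71 of them lower (2.94%), and 6.97% of the 3′ pairs did.

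**Figure D5:**
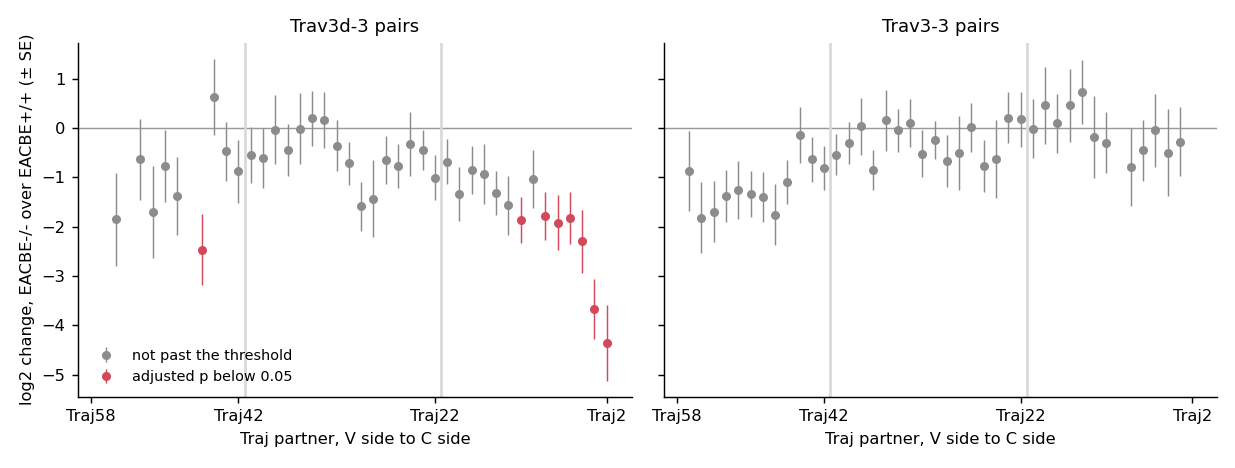
Log2 change of each tested V-J pair, EACBE-/- over EACBE+/+ (y axis, ± SE from edgeR), by Traj partner from the V side to the C side (x axis), for Trav3d-3 (left) and Trav3-3 (right). Grey lines separate 5′, middle and 3′ Traj. Trav3d-3 pairs are lower towards the 3′ end, down to -4.36 at Traj2, whereas Trav3-3 pairs are lowest at the 5′ end and none of its 40 tested pairs passes.

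With the copies summed, 16 of 42 Trav3-3 pairs fell, 7 with 5′ Traj, 8 with 3′ Traj and 1 with a middle Traj. The background was 268 of 1459 pairs (18.4%), 210 of them lower (14.4%). The lowest p was with Traj2 (-4.16, SE 0.582, and -9.13 without EACBE-/- replicate 2). That pair, 1 of the 16, could enter the test only through EACBE+/+, where it is high, so its value is a description. The called pair with Traj56, at 0 and 36 counts in EACBE-/-, also could not enter without an EACBE+/+ library, so its call carries no weight. After Traj2, the lowest p were with Traj4 (-2.65, SE 0.438) and Traj5 (-2.00, SE 0.441, edgeR adjusted p = 0.0012). Pairs with Traj9 (-1.69, SE 0.418, adjusted p = 0.0040) and Traj12 (-1.57, SE 0.397, adjusted p = 0.0050) followed. Separately, the 12 tested 5′ pairs of Trav3-3 had a median log2 change of -1.30 against 0.33 over all 722 tested 5′ pairs. Its 12 tested 3′ pairs had a median of -0.12 against -0.57 over all 646.

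Trav3-4 had 19 of 43 pairs tested after copies were summed, 3 of them 3′. The 4 called pairs, with Traj17, Traj9, Traj6 and Traj22, each had at most 3 pooled EACBE-/- counts and so could enter the test only through EACBE+/+, which leaves their calls no weight. With Traj17 it gave 2 and 28 counts in EACBE+/+ and 1 and 1 in EACBE-/-, a pooled ratio of 15.0 (95% exact interval 3.81 to 130, counting error only). No called pair of any member was higher in EACBE-/-. All pair calls were lost without EACBE+/+ replicate 2 (0 called), and DESeq2 called 0 pairs of any member, with and without summing copies.

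Likeness of J profiles was measured as total variation distance, the share of counts that would have to move to make 2 profiles equal (0 is identical, 1 is disjoint), averaged over the replicate 2 libraries. Of 69 other Trav with at least 500 counts in both, Trav7d-4 (0.0834), Trav6d-7 (0.102) and Trav7-4 (0.104) were nearest to the members' sum, against a median of 0.168. Taken alone, Trav3-3 was nearest to Trav9-4, 10.2 kb away (0.112), and Trav3d-3 to Trav7n-6, 352.1 kb away (0.115). For Trav3n-3 the nearest was Trav3d-3, 311.1 kb away (0.158), and for Trav3-4 it was Trav16n (0.186). These last values carry a depth effect, since Trav3n-3 and Trav3-4 had only 245 and 461 counts in EACBE-/- replicate 2, under the minimum set for the others. Between members, the distance of Trav3-3 and Trav3-4 was 0.297 in EACBE+/+ replicate 2 and 0.436 in EACBE-/- replicate 2. That of Trav3d-3 and Trav3-3 went from 0.452 to 0.277. Distances rise with shallow counts, so replicate 1 values are not used here.

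The position of the members among chromatin boundaries was read from 2 deposited Hi-C lists of intervals of 20000 bases, 1 per genotype, from the CD3-stimulated thymus of C57BL/6 EACBE+/+Rag1-/- and EACBE-/-Rag1-/- mice aged 4 to 8 weeks. The submitters' processing notes name mm10, the same assembly as GRCm38. These mice cannot rearrange their receptor genes, so they are not the mice of the repertoire libraries, and with 1 list each there is no replicate check. No boundary lay between Trav3d-3, Trav3n-3 and Trav3-3 in either list. Between Trav3-3 and Trav3-4 there was 1 in each, at 53680001 to 53700000 in EACBE+/+ and 53700001 to 53720000 in EACBE-/-. Between Trav3-4 and Traj58 the EACBE+/+ list held 3 boundaries, the nearest 32.7 kb from Trav3-4, and the EACBE-/- list held 1, 292.7 kb away.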

How the data were processed

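Tcra and Tcrd libraries were taken as the authors deposited them, as count tables of V by J segments. Which aligner or caller assigned the segments, and if reads or distinct receptors were counted, is not stated in any source at hand. The submitters' processing notes name mm10, Juicer 1.13.02, HiC-Pro 2.11.1, cutadapt 0.4.4 and 2 versions of Bowtie2 (2.3.4.3, 2.20.8), with no role. The deposited boundary lists carry a score per interval, not used as a result. All columns were mapped to a sample.

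Totals ranged from 10694 to 172388 counts. Counts were summed per segment, with copies summed, or per pair, and tested with edgeR 4.0.16 (R 4.3.3; glmQLFit and glmQLFTest, table totals as library sizes, no TMM, filterByExpr, Benjamini-Hochberg over all features tested, threshold 0.05). The SE is the log2 change over the square root of F. Tests between V classes used library as a block. DESeq2 1.42.0, TMM, no filter, other bounds (Traj61 to Traj47, Traj16 to Traj1), each pair counted once, a replicate block and leaving out each library were alternatives. Single values used scipy 1.17.1 exact permutation tests, two-sided. The edgeR genotype tests and the edgeR test of members against other Trav, averaged over genotypes, were tried on simulated data. The interaction tests, the member-against-member tests, DESeq2 and the replicate block were not. Segments missing from a table (Trav6-1, and 5 Trdv) were left out of the segment test. Wilson intervals (95%) and the floor of 3 counts cover counting error only.

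The members and lists were chosen with earlier results of these data known. All members were named; of pairs, up to 6 by p past the threshold; of Traj, up to 8 by p past the threshold, or the 4 of lowest p, and the 5 most used; and the 3 most alike Trav. Coordinates come from RefSeq's GRCm38.p6 table by symbol, which matched all 4 members.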

Additional observations from a re-analysis of the deposited data

Results flagged for a closer look

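The Tcrd tables, which the comparisons above do not use, also list some of the members, always joined to Trdj1. Trav3-4 had 19 of 28093 counts in EACBE+/+ replicate 2 (0.0676%, 95% Wilson interval 0.0433 to 0.106) and 40 of 47158 in EACBE-/- replicate 2 (0.0848%, interval 0.0623 to 0.115). Both lie above the 3 counts that a count of 0 allows. Trav3-3 had 4 counts in EACBE+/+ replicate 2 (0.0142%), also above 3, and 2 in EACBE-/- replicate 2. In these tables Trav3d-3 was listed at 0, which allows up to 0.0107% and 0.00636%, and Trav3n-3 was not listed. The replicate 1 tables, with 1744 and 5615 counts, list none of the 4. No group of the main comparison had enough libraries for a test of single outlying libraries.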

How the results depend on the processing

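All 4 members kept a negative log2 change in use under every alternative run, and the members' summed share stayed lower in EACBE-/- (leave-one-out -3.52 to -2.87 percentage points). Counts of calls moved with the tool and with the deep libraries. Segments called numbered 6, with 0 when each V-J pair was counted once and 2 to 4 on leaving out 1 library. With copies summed they numbered 12, and 0 to 5 on leaving out 1 library. Pairs called numbered 79, with 0 by DESeq2, 129 without the filter and 0 to 150 on leaving out 1 library. With copies summed they numbered 268, with 6 by DESeq2 and 0 to 332 on leaving out 1 library. For the members against other Trav, 20 Traj were called, 8 by DESeq2 and 3 to 23 on leaving out 1 library; for the interaction with genotype, 0 were called, 4 with TMM factors and 0 to 8 on leaving out 1 library.

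Between members, Trav3d-3 against Trav3-3 gave 29 Traj and 0 to 32 on leaving out 1 library; its interaction with genotype gave 1 (Traj4, chosen after its values were seen), 2 with TMM factors, 0 by DESeq2 and 0 on leaving out any 1 library. Trav3n-3 against Trav3-3 gave 19, 36 without the filter and 4 to 32 on leaving out 1 library; its interaction gave 3, 0 with TMM factors, 0 by DESeq2 and 0 to 2 on leaving out 1 library. Trav3-4 against Trav3-3 gave 19, 4 by DESeq2 and 0 to 18 on leaving out 1 library; its interaction gave 12, 0 by DESeq2 and 0 to 18 on leaving out 1 library. Without a replicate 2 library 26 or 32 Traj were tested for Trav3d-3 against Trav3-3, in place of 41; the cause of the other changes was not tested.

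Some small differences, none past a threshold, changed sign. The members' summed 5′ share, -2.07 percentage points, became 1.22 with pairs counted once and ran from -4.22 to 0.0792 on leaving out 1 library. The 5′ share of Trav3d-3 (-0.0856 points) became 0.321 with pairs counted once and ran from -3.56 to 3.39 on leaving out 1 library. That of Trav3n-3 (0.994 points) became -1.80 with narrower bounds, -1.62 with pairs counted once, and ran from -1.42 to 3.41 on leaving out 1 library. The genotype difference of the members' 3′ share relative to other Trav, 1.79 points, ran from -0.185 to 3.77 on leaving out 1 library. The 3′ share of Trav3-3 minus Trav3-4, -0.432 points, became 8.90 with pairs counted once and ran from -4.73 to 4.75 on leaving out 1 library.

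Replicate numbers are shared between genotypes, but the labels do not say that a number marks a shared batch. Over 105 segments the deviations of the replicate 1 libraries from their group means correlated at 0.868. With a replicate block 49 of 105 segments were called (26 lower, 23 higher) and 36 of 46 copy-summed segments (21 lower, 15 higher). Pairs called were 715 of 2416 and, with copies summed, 687 of 1459. Calls were thus common under this fit. All 4 members then passed as segments (edgeR adjusted p from 8.0e-06 to 0.0081), and so did Trav3-4 with copies summed (-0.93, adjusted p = 0.0035). Depth limits Trav3n-3 and Trav3-4 most, with 63 to 79 counts in the replicate 1 libraries.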
